A study of Homo sapiens with 18 samples.

Results

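The genes described here are those for the chains of collagen and laminin, taken as every row of the RNAseq tables whose symbol is COL, a number, A and a number, or LAM, then A, B or C and a number. The rule uses symbols and no expression value, though it was set with earlier results of these data known. Of 15358 genes listed in MCF10A cells, 35 were such chains (25 collagen and 10 laminin), and of 15257 genes listed in hTERT RPE-1 cells, 38 were (29 collagen and 9 laminin). In all 46 chains were listed in at least 1 line and 27 in both. Of the chains listed, 34 of 35 in MCF10A and 38 of 38 in hTERT RPE-1 reached a value of 10 in at least 3 of the 9 libraries of the line and were tested. The exception was COL9A3 in MCF10A.

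MCF10A is a non-tumorigenic human mammary epithelial line and hTERT RPE-1 a human retinal pigment epithelial line immortalised with telomerase. Cells of each line were transfected with a non-targeting siRNA (siNT), a hsa-miR-28-5p mimic (miR-28 below) or a hsa-miR-708-5p mimic (miR-708 below), each at 30 nM, and RNA was sequenced after 72 h. Both mimics belong to the MIR-28 family, whose members share a seed, and the study asked which transcripts change when either is raised. There were 3 biological replicates of each of the 6 groups (numbered 7, 8 and 9 for MCF10A, and 1, 2 and 3 for hTERT RPE-1, the order in which library values are given below), every group including siNT was transfected, and each cell type was represented by 1 line.

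Collagens are trimers of alpha chains wound into a triple helix, and laminins are cross-shaped trimers of 1 alpha, 1 beta and 1 gamma chain. Type IV collagen networks and laminin polymers form the basement membrane under epithelia, while fibrillar collagens build the tensile fibres of the stroma and other collagens decorate fibrils or anchor cells to the membrane. The retinal pigment epithelium rests on such a membrane, which is part of Bruch's membrane, and mammary basal cells attach to theirs through a laminin that holds LAMA3 and LAMB3.

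Mature hsa-miR-708-5p is 23 bases long and is shown because its seed, bases 2 to 8 in capitals, sets which target letters were searched for. The sequence comes from RefSeq (GRCh38.p14, chr11:79402077-79402099, minus strand).
hsa-miR-708-5p: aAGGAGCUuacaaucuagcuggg
Matches to this seed were searched in the 3′ UTR of 1 transcript per gene (GENCODE release 44, hg38) on the sense strand as AGCTCCT (7 letters), GCTCCTA (7 letters) and GCTCCT (6 letters). A 7-letter match was found in 4 of the 34 chains tested in MCF10A (11.8%) and in 5 of the 38 tested in hTERT RPE-1 (13.2%), against 18.7% of the 12941 and 18.7% of the 12743 tested genes with a 3′ UTR. A further 6 chains in MCF10A (17.6%) and 9 in hTERT RPE-1 (23.7%) held only the 6-letter match, against 17.0% and 17.1% of genes. The 7-letter matches are printed with the bases around them because they belong to chains that moved in different directions. Capitals mark the match, and coordinates give the 8 bases around it in hg38.
COL17A1, chr10:104032210-104032217, minus strand: catggcaggacAGCTCCTggaccaggtctc
COL17A1, chr10:104031770-104031777, minus strand: gctgtgccatcAGCTCCTtcctcccctgtt
COL6A1, chr21:46004403-46004410, plus strand: cctgcctgcgcAGCTCCTtccctaggcacc
COL6A2, chr21:46132679-46132686, plus strand: tgcacctctccAGCTCCTcccacggggtcc
COL8A2, chr1:36096303-36096310, minus strand: tccccgatcagAGCTCCTctgcaggaaaca
COL25A1, chr4:108809942-108809949, minus strand: gtaaaaacaagAGCTCCTgctatctcttgg
LAMA4, chr6:112108621-112108628, minus strand: tattaaaagtttGCTCCTAgcctgggcaac
A match is a run of letters and does not show that the site is bound.

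All values below are read counts per gene scaled to the other libraries of the same line, so levels are compared only within a line. COL9A3 in MCF10A was at 3.59–4.56 with siNT, 1.97–3.32 with miR-28 and 5.00–14.3 with miR-708. Reads assigned to genes numbered 19.4–31.7 M per MCF10A library and 23.8–40.3 M per hTERT RPE-1 library, and 3 reads correspond to a value of 2.49–4.02 and 2.35–4.41 respectively. RPS28, the ribosomal protein gene on which the study centres, was at 3589–4062 with siNT, 500–697 with miR-28 and 532–785 with miR-708 in MCF10A, and at 2892–3465, 123–184 and 123–177 in hTERT RPE-1. One hTERT RPE-1 library, miR-28 replicate 1, stood apart, with 16.7% of its values in ribosomal RNA genes against 4.84–7.88% in the other 8 libraries of the line. Of 6 basal breast markers all were listed in MCF10A, and KRT5, KRT14, KRT6A and KRT17 were not listed in hTERT RPE-1. Of 8 retinal pigment epithelium markers, 6 were listed in hTERT RPE-1, RPE65 and TYR not being among them.

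Summed marker levels moved with the mimics. The basal breast sum in MCF10A was 188811–215619 with siNT, 134134–144388 with miR-28 and 113991–132174 with miR-708. In hTERT RPE-1 the sum of the 7 fibroblast and mesenchymal markers, all listed, went from 170603–201195 to 157467–165973 and 129273–146575, and that of the listed retinal pigment epithelium markers from 2941–4289.9 to 1945–2065 and 2101–2265. Of the 5 retinal pigment epithelium markers tested, 2 were called higher and 3 lower with miR-28 and 1 higher and 2 lower with miR-708, so its sum does not speak for each member. The sum of the 3 listed luminal breast markers of hTERT RPE-1 (KRT8, KRT18 and ESR1) was 25661–28847 with siNT, 9886–11052 with miR-28 and 5187–5711 with miR-708. KRT8 (log2 fold change -1.60 and -2.83) and KRT18 (-1.21 and -1.95) were called lower, but ESR1 was called higher (1.14 and 1.09). The sum of the 2 listed basal breast markers there was 63.0–88.0 with siNT, 63.3–86.2 with miR-28 and 15.7–25.7 with miR-708. In MCF10A the 4 listed fibroblast and mesenchymal markers (without PDGFRA, LUM and THY1) summed to 13574–19772 with siNT, 13469–30832 with miR-28 and 20193–35456 with miR-708. For miR-708 this sum moved opposite to that of the 7 in hTERT RPE-1. Of the 3 tested in MCF10A only DCN was called, higher with each mimic, while 5 of 7 were called lower with miR-708 in hTERT RPE-1. The 2 leukocyte and endothelial markers listed in MCF10A summed to 363–411 with siNT, 313–392 with miR-28 and 589–816 with miR-708. With miR-708 they were called in opposite directions, CD68 higher (log2 fold change 1.66) and PECAM1 lower (-1.17). PECAM1 was also called lower with miR-28 (-1.07). The 4 retinal pigment epithelium markers listed in that line summed to 827–1141 with siNT, 1398–1676 with miR-28 and 1118–1512 with miR-708, and the 5 listed luminal markers overlapped between groups (16453–22780.2 with siNT). The part of these markers in the changes of collagen and laminin chains was not tested, and in bulk RNA fewer cells of a type and less RNA per cell cannot be told apart. Opposite-strand exons of another gene overlap those of COL18A1 (SLC19A1), COL4A2 (COL4A2-AS1 and COL4A2-AS2), COL4A3 (MFF-DT), LAMA5 (ADRM1 and LAMA5-AS1), LAMB1 (DLD) and COL16A1 (PEF1-AS1), and exons of genes without a symbol those of COL1A1, COL5A1, COL5A3, COL15A1, LAMA1, LAMA2 and LAMA4. Use of strand in the counting was not given in the sources used here, so reads of these pairs cannot be told apart.

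The lines differed in which chains led under siNT, here as values per kilobase of transcript (mean ± SD, n = 3). Among the highest in MCF10A were LAMB1 at 2844 ± 176, the hemidesmosome collagen COL17A1 at 2429.6 ± 139, LAMB3 at 1634 ± 273, LAMC1 at 1614 ± 74.3 and LAMA3 at 1584 ± 302. The last 3 lay closer together than the sum of their SDs, and the gaps between the other chains given were wider. Type IV collagen was led there by COL4A5 at 881 ± 104 and COL4A6 at 452 ± 34.6, with COL4A1 at 181 ± 33.5 and COL4A2 at 293 ± 33.9.

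In hTERT RPE-1 the ubiquitous type IV chains COL4A1 at 16931 ± 4956 and COL4A2 at 9606 ± 2648 per kilobase came first, then COL8A1 at 8882 ± 1242, COL1A1 at 6999 ± 3926, LAMB1 at 5815 ± 539, COL12A1 at 5054 ± 1394 and LAMC1 at 4869 ± 537. Each of these chains was closer to the next than the sum of their SDs. All chains were measured in the same libraries, so these SDs do not measure the spread of a difference between neighbours. COL4A1 was above COL4A2 in every siNT library. LAMB3 and LAMA3 were towards the other end, LAMB3 at 65.3 ± 9.77 and LAMA3 at 1.32 ± 0.219, and COL17A1 was the lowest of the 38 at 0.984 ± 0.297. COL1A2, the partner of COL1A1 in type I collagen, was at 8.98 ± 3.62 against 41392 ± 23218 for COL1A1 before division by length. Together the chains took 0.407–0.436% of all MCF10A values with siNT, 0.394–0.483% with miR-28 and 0.404–0.479% with miR-708, which overlap. In hTERT RPE-1 they took 1.15–1.72%, 0.828–1.20% and 0.748–0.904%, the miR-708 libraries being below every siNT library.

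**Figure D1:**
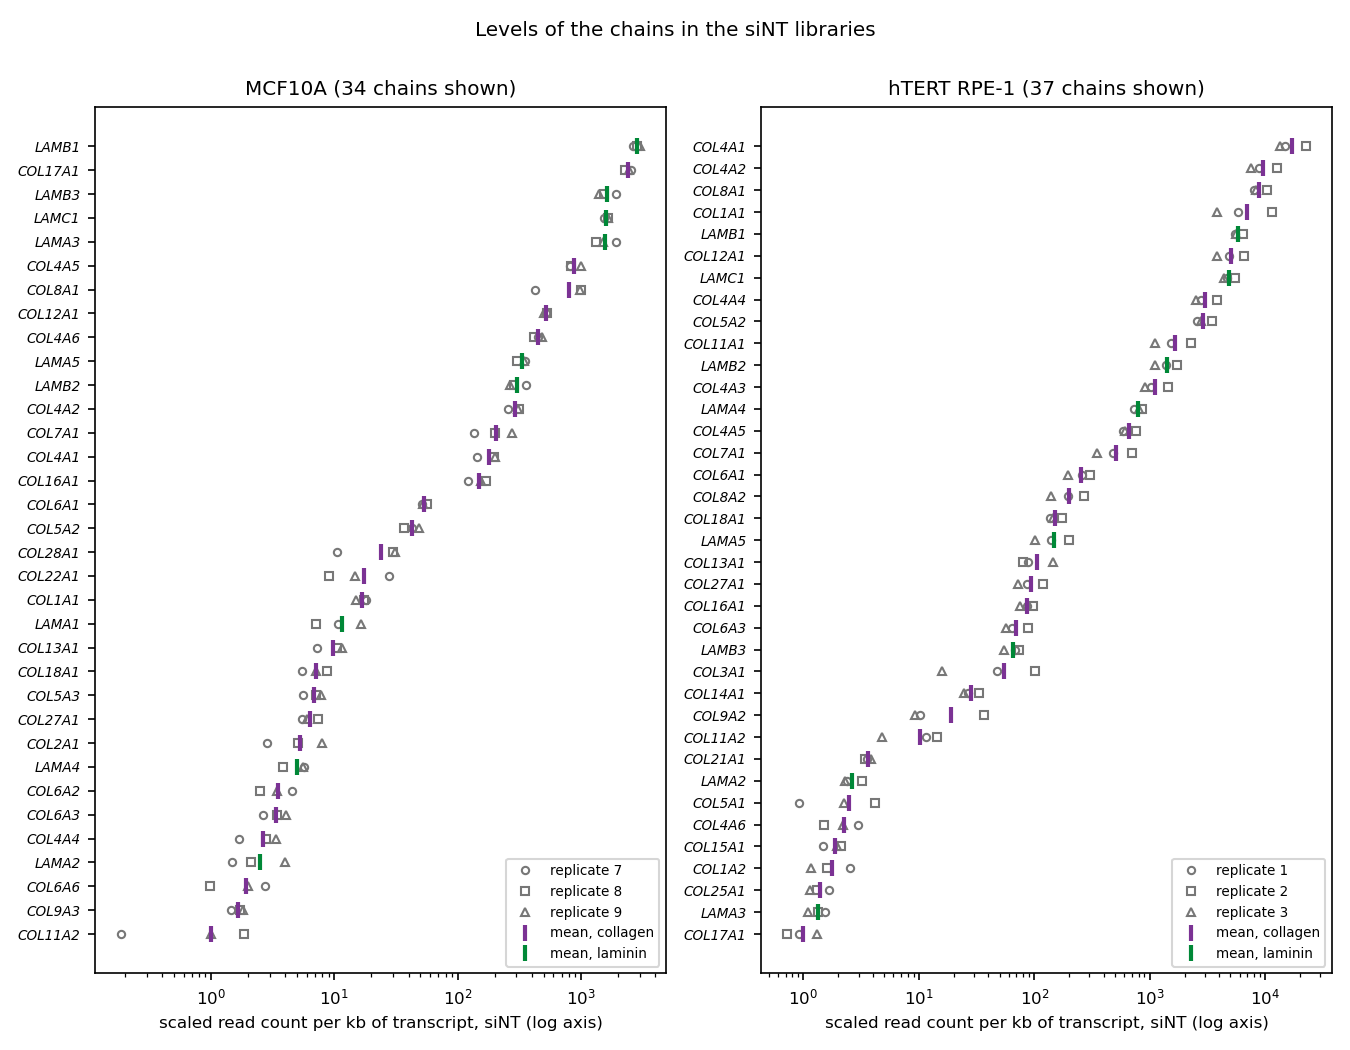
Level of the chains with siNT in MCF10A (34 of 35 chains shown) and hTERT RPE-1 (37 of 38 shown), as the scaled read count per kilobase of transcript on a log axis, with points for the 3 libraries and a line at their mean. In MCF10A LAMB1 is the highest shown, at 2844, and in hTERT RPE-1 COL4A1, at 16931, while LAMA3 and COL17A1 stand high in MCF10A and lowest in hTERT RPE-1.

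Changes were tested with limma on log2(value + 1) with Benjamini-Hochberg adjustment over all genes tested in the line, and a chain is called changed at an adjusted p below 0.05. Errors of log2 fold changes are standard errors. In hTERT RPE-1, miR-28 changed 19 of 38 chains (50%), 10 higher (26.3%) and 9 lower (23.7%), where 46.8% of the 14527 genes tested were called, 23.3% higher and 23.5% lower. With miR-708, 28 of 38 chains (73.7%) changed, 9 higher (23.7%) and 19 lower (50%), beside 62.1% of all genes, 30.9% higher and 31.2% lower. The median log2 fold change of the chains was -0.14 with miR-28 and -0.60 with miR-708, and that of all genes 0.0061 and 0.0021. Scaled by library size instead, which moves the median of all genes with miR-708 to 0.32, 11 chains were higher and 13 lower. Without miR-28 replicate 1, the library rich in ribosomal RNA, 20 chains were called with miR-28, COL15A1 and COL27A1 being gained and LAMB1 lost.

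In MCF10A each mimic changed 13 of 34 chains (38.2%). With miR-28, 10 were higher (29.4%) and 3 lower (8.82%), beside 22.7% of the 14726 genes tested, 10.7% higher and 12% lower. With miR-708, 8 were higher (23.5%) and 5 lower (14.7%), beside 32.8% of genes, 15.5% higher and 17.3% lower. Medians were 0.17 and 0.11 for the chains and 0.0056 and -0.0047 for all genes. Quantile normalization gave 10 higher and 5 lower with miR-28. The 13 calls with miR-28 became 8 without siNT replicate 8 or miR-28 replicate 9, and the 13 with miR-708 became 8 without siNT replicate 7 or 8 or miR-708 replicate 8 or 9. Both mimics were set against the same siNT libraries, so their values are given side by side and are not independent.

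**Figure D2:**
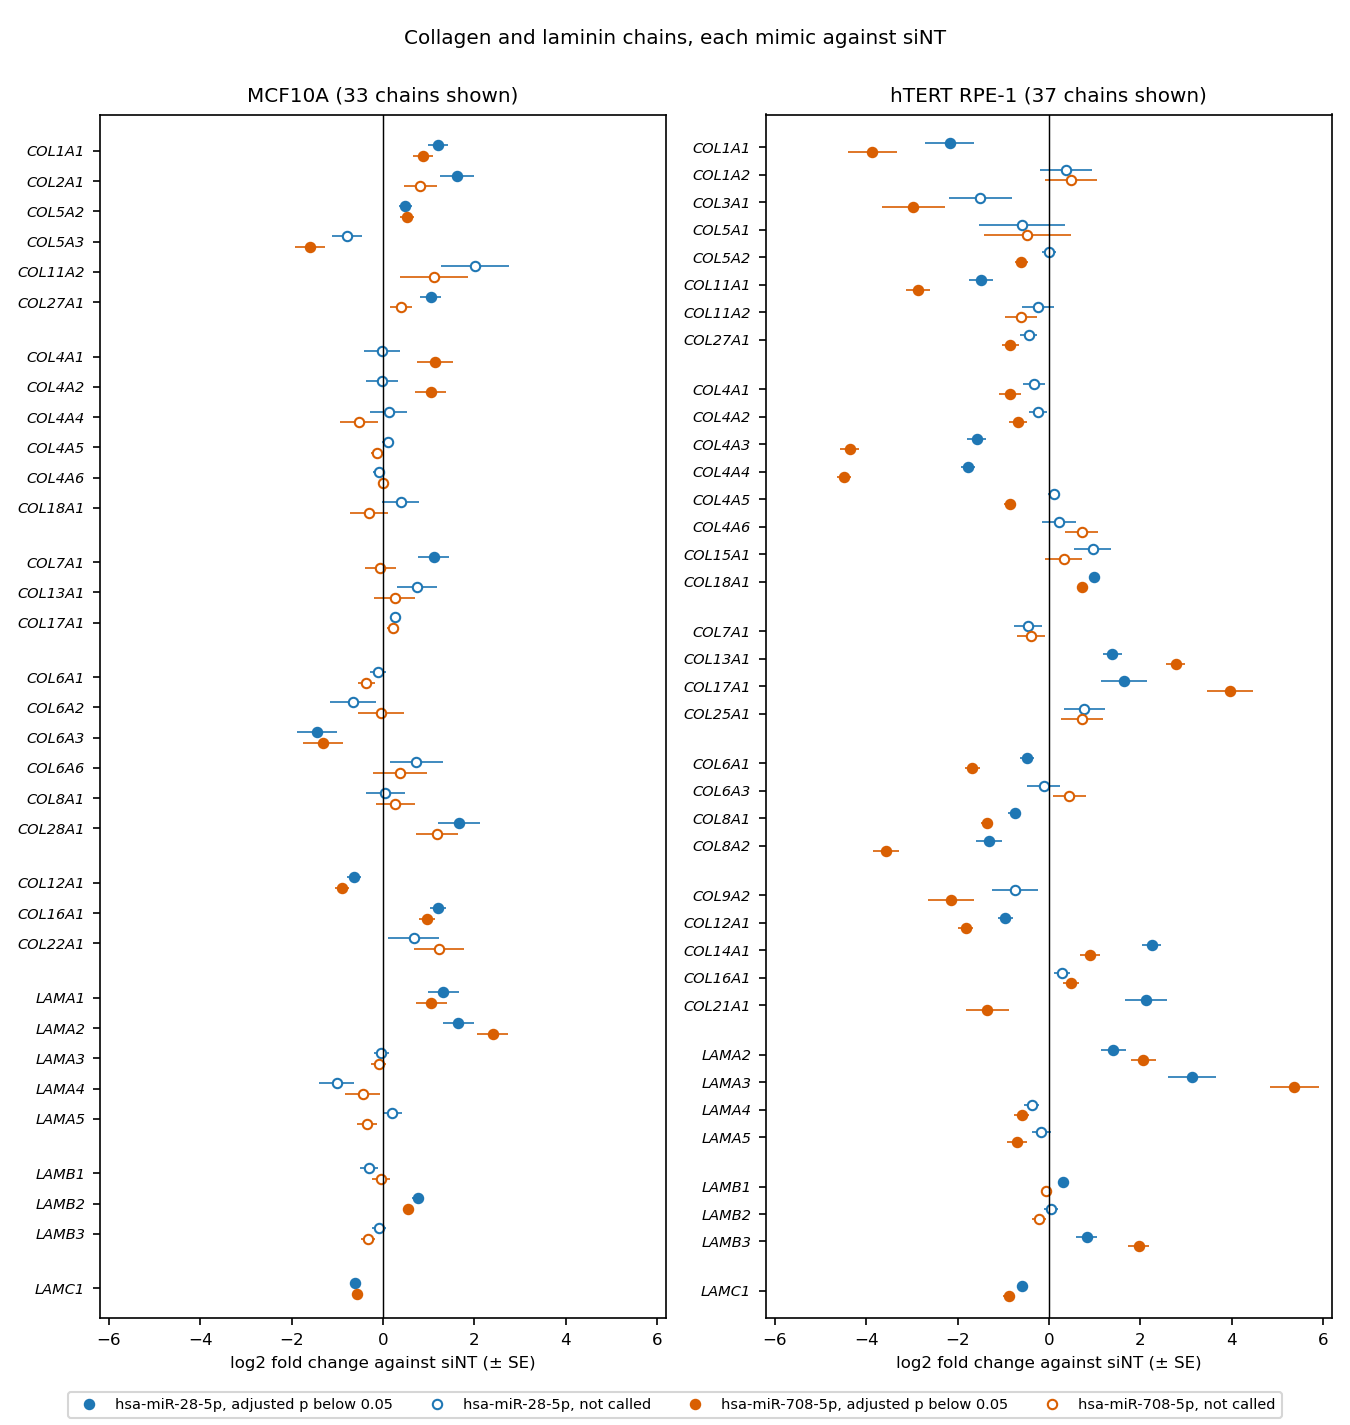
Log2 fold change over siNT (± SE, limma, n = 3 libraries per group) of the chains tested (33 of 34 shown in MCF10A and 37 of 38 in hTERT RPE-1), by line and mimic, grouped by role, with filled symbols for chains called at an adjusted p below 0.05. In hTERT RPE-1 the points run from -4.49 for COL4A4 to 5.38 for LAMA3 with miR-708, and in MCF10A from -1.60 for COL5A3 to 2.41 for LAMA2.

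Among the laminin alpha chains of hTERT RPE-1, LAMA3 and LAMA2 rose with both mimics while LAMA4 and LAMA5 fell with miR-708. LAMA3 (chr18:23689453-23956222, hg38, plus strand), an alpha chain of epithelial anchorage, was at 16.4, 14.2 and 11.7 with siNT, 52.4, 373 and 113 with miR-28 and 530.4, 750.5 and 604 with miR-708. Every mimic library lay above every siNT library, those of miR-28 were spread widely with replicate 2 the highest, and those of miR-708 were higher again. Its log2 fold change was 3.13 ± 0.53 (adjusted p = 0.000886) with miR-28 and 5.38 ± 0.53 (adjusted p = 1.23e-05) with miR-708, a ratio of means of 44.5 for the latter. Without miR-28 replicate 2 the miR-28 value was 2.38 (adjusted p = 0.000205). The siNT libraries held few reads of it, so this ratio is less precise than that of an abundant chain.

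LAMA2, the alpha chain of muscle and peripheral nerve laminin, was at 23.3, 31.4 and 22.01 with siNT, 48.0, 105 and 65.2 with miR-28 and 104, 109 and 115 with miR-708. Neither mimic overlapped siNT, and the log2 fold change was 1.41 ± 0.28 (adjusted p = 0.00204) and 2.07 ± 0.28 (adjusted p = 9.39e-05). LAMA4, an alpha chain of endothelial and mesenchymal membranes and the holder of 1 of the seed matches above, was at 5299, 6149.9 and 5811 with siNT, 4862, 4546 and 3949 with miR-28 and 3591, 5041 and 3037 with miR-708. Its libraries with siNT were the 3 highest, and the log2 fold change was -0.37 ± 0.16 (adjusted p = 0.0814) and -0.59 ± 0.16 (adjusted p = 0.00838). LAMA5, the alpha chain of most adult epithelial membranes, was at 1607, 2304 and 1167 with siNT, 1313, 1397 and 1659 with miR-28 and 915, 1192 and 928 with miR-708, with the lowest siNT library inside the miR-708 range, at a log2 fold change of -0.17 ± 0.21 (adjusted p = 0.54) and -0.70 ± 0.21 (adjusted p = 0.0146). The miR-708 calls of LAMA4 and LAMA5 were lost with library size scaling (adjusted p = 0.163 and 0.133), and that of LAMA5 without miR-708 replicate 1 (adjusted p = 0.0521).

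The beta chain LAMB3, which assembles with LAMA3, also rose with both mimics in hTERT RPE-1. LAMB3 (chr1:209614870-209652425, minus strand) was at 273, 294.9 and 219 with siNT, 371, 717 and 370.5 with miR-28 and 942, 1121 and 1005 with miR-708. Its siNT libraries were the 3 lowest, and miR-28 replicate 2 was the highest of its group. The log2 fold change of LAMB3 was 0.83 ± 0.23 (adjusted p = 0.0135) with miR-28 and 1.97 ± 0.23 (adjusted p = 3.67e-05) with miR-708. The miR-28 call of LAMB3 was lost without siNT replicate 3 (adjusted p = 0.0525).

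CD68, a lysosomal protein used as a macrophage marker, is one of the leukocyte and endothelial markers whose summed level in hTERT RPE-1 was 330.2–459 with siNT, 530.0–3728 with miR-28 and 4797–7246 with miR-708. Of the 4 markers 3 were listed, PECAM1 not being among them. Only CD68 passed the filter and was tested, and it was called higher with both mimics (log2 fold change 2.06 and 4.04). The highest miR-28 library of the sum was replicate 2, as for LAMA3, LAMB3 and, below, COL17A1. The part of CD68 in the changes of those chains was not tested.

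LAMC1, the gamma chain of most laminins, fell with both mimics from much higher levels, at 37309.5, 43361 and 35152 with siNT, 23219, 28130.1 and 25667 with miR-28 and 19752, 21137 and 21844 with miR-708. No mimic library reached the siNT range, and the log2 fold change was -0.59 ± 0.12 (adjusted p = 0.00228) and -0.88 ± 0.12 (adjusted p = 8.98e-05), the former not called after quantile normalization (adjusted p = 0.0605). LAMB1, its usual beta partner, was at 30724, 36345 and 31502 with siNT, 40817, 41542 and 39501 with miR-28 and 31176, 32572 and 30987 with miR-708. The miR-28 libraries were the 3 highest and those of miR-708 lay within the siNT range. LAMB1 was at a log2 fold change of 0.31 ± 0.11 (adjusted p = 0.0334) with miR-28 and -0.054 ± 0.11 (adjusted p = 0.679) with miR-708. The miR-28 call was lost without siNT replicate 1 or 3, miR-28 replicate 1, 2 or 3 or miR-708 replicate 3 (adjusted p = 0.0521 to 0.129), and with miR-708 the sign turned to 0.27 with library size scaling and 0.50 after quantile normalization. LAMB2, the beta chain of synaptic and kidney laminins, was at 7834, 9897 and 6345 with siNT, 6916, 8935 and 8782 with miR-28 and 6255, 7312 and 6772 with miR-708, overlapping between groups, at a log2 fold change of 0.047 ± 0.16 (adjusted p = 0.825) and -0.22 ± 0.16 (adjusted p = 0.239).

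**Figure D3:**
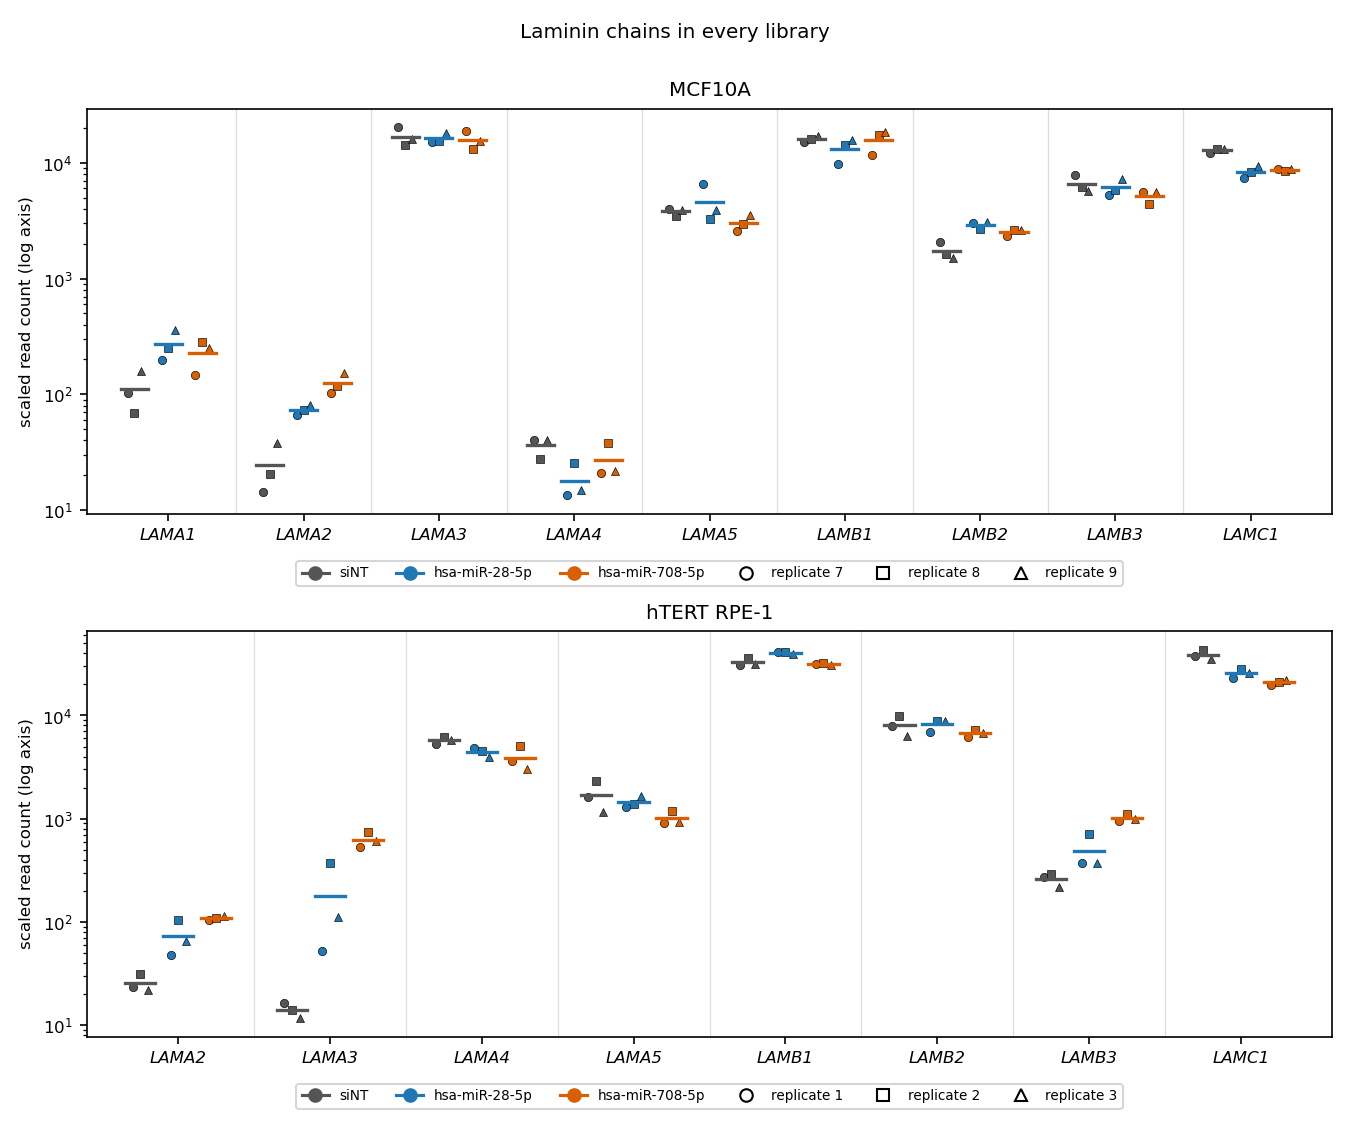
Scaled read count of laminin chains in every library of MCF10A (9 of 10 chains shown) and hTERT RPE-1 (8 of 9 shown) on a log axis, with points for the 3 libraries of siNT, miR-28 and miR-708 and a line at each mean. LAMA3 and LAMB3 step upward only in the hTERT RPE-1 panel, LAMA3 from 11.7–16.4 with siNT to 530.4–750.5 with miR-708.

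Among basement membrane collagens of hTERT RPE-1, COL4A3 and COL4A4 fell furthest and COL18A1 rose. COL4A3 and COL4A4 encode chains of the type IV network of kidney, lung and eye membranes and are transcribed away from each other. COL4A4 (chr2:227002714-227164453, minus strand) was at 27709, 37833 and 25189 with siNT, 8818, 8171 and 9306 with miR-28 and 1327, 1536 and 1139 with miR-708. COL4A3 (chr2:227164624-227314792, plus strand) was at 8286, 11486 and 7252 with siNT, 2971, 3025 and 2873 with miR-28 and 416, 582 and 326 with miR-708. In each gene the 3 groups were fully separated in the order siNT, miR-28, miR-708. COL4A4 changed by a log2 fold change of -1.77 ± 0.15 (adjusted p = 1.2e-05) and -4.49 ± 0.15 (adjusted p = 2.93e-08), the miR-708 mean being 4.41% of siNT. COL4A3 changed by a log2 fold change of -1.58 ± 0.20 (adjusted p = 0.000154) and -4.36 ± 0.20 (adjusted p = 1.17e-07), with 4.90% left.

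The annotated starts of these genes are 419 bases apart on chromosome 2 in RefSeq (GRCh38.p14). RefSeq places the COL4A4 start at 227164205, but the GENCODE span given above places it at 227164453, nearer to COL4A3. The distance, the shared bases and the motifs of the COL4A4 window therefore depend on the annotation. The promoter window of COL4A3 (300 bases around its start) is shown because the pair moved together; capitals mark the 82 bases it shares with the window of COL4A4.
COL4A3, chr2:227164374-227164673, plus strand: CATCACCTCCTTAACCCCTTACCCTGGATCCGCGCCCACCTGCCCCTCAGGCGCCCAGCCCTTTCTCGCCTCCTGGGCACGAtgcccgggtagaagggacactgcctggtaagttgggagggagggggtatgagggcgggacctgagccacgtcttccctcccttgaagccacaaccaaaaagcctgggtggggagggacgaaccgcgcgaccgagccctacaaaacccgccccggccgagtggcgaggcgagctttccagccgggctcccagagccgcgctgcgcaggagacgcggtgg
Searched on both strands, this window holds 2 GC boxes (GGGCGG), a motif present in 45.0% of 35116 promoter windows of this length. It holds no CCAAT box (CCAAT, in 34.6%) and no TATA box (TATAAA, in 11.5%), and the COL4A4 window holds none of the 3 motifs. COL4A1 and COL4A2, another divergent pair with starts 127 bases apart on chromosome 13, held 2 GC boxes and 1 GC box respectively, and 1 CCAAT box each. Their windows share 226 bases, and the CCAAT box and 1 GC box lie among these and are counted for both genes. These letters do not show that a factor binds there.

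COL4A1 and COL4A2, the chains of the type IV network found in nearly all basement membranes, fell less. COL4A1 was at 96746, 147779 and 87653 with siNT, 67219, 113274 and 84942 with miR-28 and 52782, 68142 and 58804 with miR-708. COL4A2 was at 56643, 81008 and 48117 with siNT, 41822, 60314 and 52864 with miR-28 and 34628, 41570.4 and 37094 with miR-708. Groups overlapped with miR-28, and in both chains every miR-708 library was below every siNT library. COL4A1 was at a log2 fold change of -0.32 ± 0.24 (adjusted p = 0.298) and -0.86 ± 0.24 (adjusted p = 0.0095), and COL4A2 at a log2 fold change of -0.24 ± 0.20 (adjusted p = 0.345) and -0.68 ± 0.20 (adjusted p = 0.0125). Both miR-708 calls were lost with library size scaling (log2 fold change -0.54 and -0.36) and quantile normalization (-0.13 and -0.087).

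COL4A5, which joins COL4A3 and COL4A4 in one network and COL4A6 in another, was at 3836, 5002 and 4003 with siNT, 4898, 4037 and 4829 with miR-28 and 2193, 2713 and 2231 with miR-708. The first mimic overlapped siNT and the second did not, at a log2 fold change of 0.10 ± 0.13 (adjusted p = 0.527) and -0.84 ± 0.13 (adjusted p = 0.000212). COL4A6 was near the lower limit, at 19.9, 10.1 and 14.7 with siNT, 14.2, 13.1 and 25.6 with miR-28 and 25.9, 29.5 and 18.7 with miR-708, with all groups overlapping, at a log2 fold change of 0.22 ± 0.37 (adjusted p = 0.656) and 0.72 ± 0.37 (adjusted p = 0.112). COL18A1, a heparan sulfate collagen and the precursor of endostatin, was at 745, 932 and 782 with siNT, 1621, 1531 and 1724 with miR-28 and 1266, 1539 and 1261 with miR-708. Its siNT libraries were the 3 lowest and it rose by a log2 fold change of 0.99 ± 0.11 (adjusted p = 7.06e-05) and 0.73 ± 0.11 (adjusted p = 0.000263). COL15A1, its relative, was at 7.77–11.1 with siNT and 13.1–29.1 with miR-28 and was called with neither mimic. With miR-28 it passed without replicate 1 of that mimic, the library rich in ribosomal RNA (adjusted p = 0.0371). It also passed with the replicate block (adjusted p = 0.042) and without the mean-variance trend (adjusted p = 0.0425).

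Of 8 fibrillar collagens tested in hTERT RPE-1, none rose, 2 fell with miR-28 and 5 with miR-708, beside 23.5% and 31.2% of all genes called lower, so the miR-28 count was near that of all genes. COL1A1 (chr17:50184101-50201632, minus strand), the main chain of type I collagen, was at 34155, 67366 and 22655 with siNT, 5438, 17209 and 6069 with miR-28 and 2189.9, 5120.3 and 1505 with miR-708. Replicate 2 was the highest of each group, and no mimic library overlapped siNT. The log2 fold change was -2.17 ± 0.54 (adjusted p = 0.00764) and -3.86 ± 0.54 (adjusted p = 0.000125), with 7.10% of the siNT mean left by miR-708. COL1A2, the other chain of type I collagen, was at 12.9, 8.11 and 5.87 with siNT, 4.36, 19.7 and 16.3 with miR-28 and 14.1, 19.0 and 6.81 with miR-708, overlapping throughout, at a log2 fold change of 0.38 ± 0.57 (adjusted p = 0.615) and 0.48 ± 0.57 (adjusted p = 0.488).

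COL3A1, which co-assembles with type I collagen, was at 263, 558 and 86.6 with siNT, 56.7, 229.5 and 41.9 with miR-28 and 20.4, 35.2 and 34.0 with miR-708. Its siNT libraries differed several-fold, the miR-28 libraries overlapped them, and those of miR-708 lay below. It was at a log2 fold change of -1.50 ± 0.70 (adjusted p = 0.0993) and -2.97 ± 0.70 (adjusted p = 0.00356), the miR-28 value being called without replicate 2 of that mimic (-2.24, adjusted p = 0.0126) or without siNT replicate 3 (-2.21, adjusted p = 0.0221). COL11A1, a minor fibrillar chain that limits fibril width, was at 11246, 16755 and 8037 with siNT, 3148, 5784 and 3812 with miR-28 and 1526, 1779 and 1409 with miR-708. The groups were separated, at a log2 fold change of -1.48 ± 0.26 (adjusted p = 0.0011) and -2.88 ± 0.26 (adjusted p = 7.04e-06).

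COL5A2, a chain of the type V collagen that nucleates fibrils, was at 17447, 23463 and 18857 with siNT, 16083, 21613 and 22699 with miR-28 and 12118, 14048 and 13012 with miR-708, at a log2 fold change of 0.011 ± 0.15 (adjusted p = 0.961) and -0.60 ± 0.15 (adjusted p = 0.00544). Only its miR-708 libraries all lay outside the siNT range, and that call was lost with library size scaling (adjusted p = 0.15) and quantile normalization (0.489). COL5A1, its usual partner, was close to the lower limit at 7.77, 35.5 and 19.1 with siNT, 1.09, 26.2 and 32.6 with miR-28 and 11.8, 20.9 and 7.66 with miR-708, with no call (log2 fold change -0.58 ± 0.95, adjusted p = 0.641, and -0.47 ± 0.95, adjusted p = 0.687). COL27A1, a cartilage-type fibrillar chain, fell with miR-708, by a log2 fold change of -0.85 ± 0.19 (adjusted p = 0.00267), from 569–933 to 341–463. COL11A2 was not called, at a log2 fold change of -0.23 ± 0.35 (adjusted p = 0.609) and -0.61 ± 0.35 (adjusted p = 0.146), unless siNT replicate 3 was left out (adjusted p = 0.0246 and 0.00203).

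**Figure D4:**
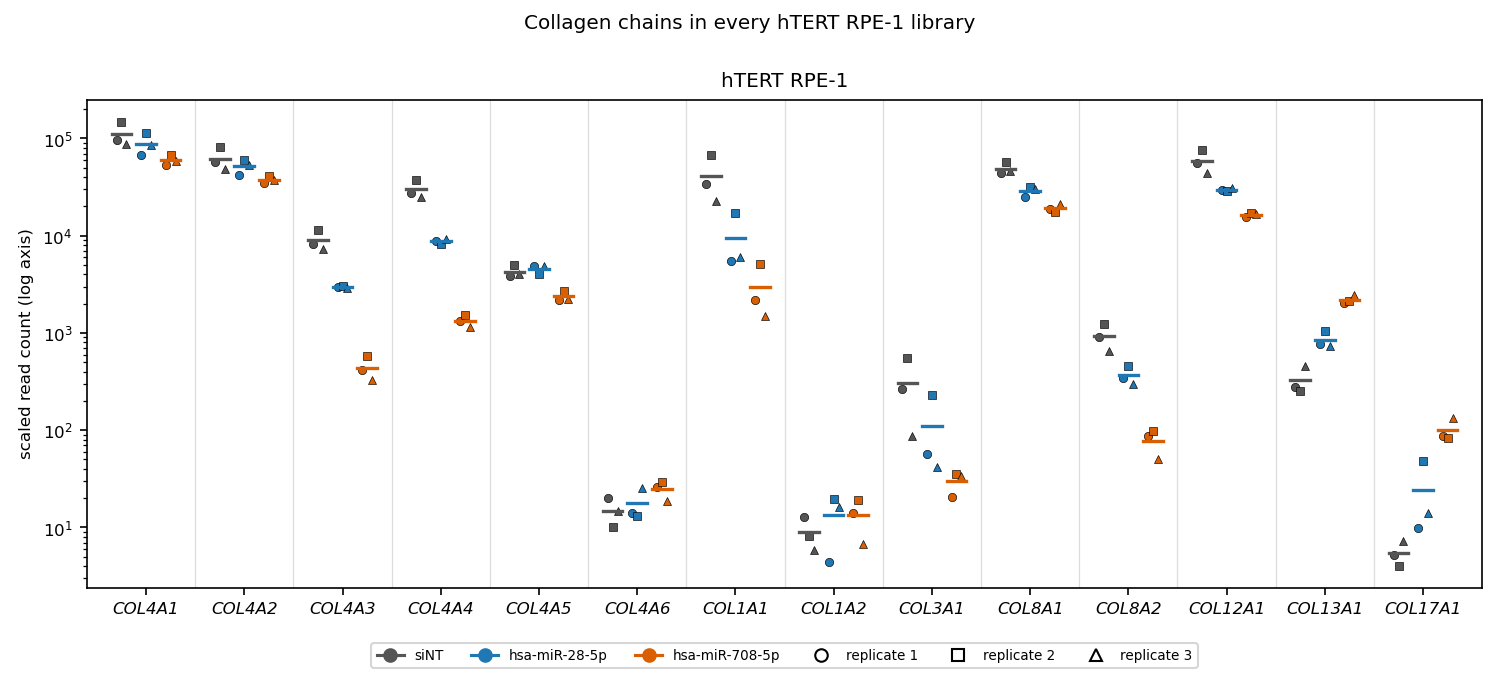
Scaled read counts of 14 collagen chains in each hTERT RPE-1 library on a log axis, 3 points and a mean line for siNT, miR-28 and miR-708. COL4A3, COL4A4, COL8A2 and COL1A1 step down from siNT through miR-28 to miR-708, COL4A4 from 25189–37833 to 1139–1536, while COL13A1 and COL17A1 step up.

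Of the anchoring and transmembrane collagens in hTERT RPE-1, 2 of 4 rose with both mimics and none fell, beside 23.3% and 30.9% of all genes called higher. COL17A1 (chr10:104031286-104085880, minus strand), the transmembrane collagen of hemidesmosomes and the holder of 2 seed matches, was at 5.18, 4.05 and 7.34 with siNT, 9.82, 48.7 and 13.98 with miR-28 and 87.1, 82.8 and 134 with miR-708. The siNT libraries, close to the value of 3 reads, were the lowest, and those of miR-708 the highest. COL17A1 rose by a log2 fold change of 1.65 ± 0.51 (adjusted p = 0.0216) and 3.97 ± 0.51 (adjusted p = 6.74e-05). The first call was lost without siNT replicate 1 or 2 or miR-28 replicate 2 (adjusted p = 0.0538 to 0.0693), its value being 0.995 without miR-28 replicate 2.

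COL13A1, a transmembrane collagen of cell contacts, was at 278, 253 and 459 with siNT, 773, 1047 and 728 with miR-28 and 2035, 2113 and 2434 with miR-708. All 3 groups were separated, rising by a log2 fold change of 1.39 ± 0.21 (adjusted p = 0.000431) and 2.78 ± 0.21 (adjusted p = 2.09e-06). COL7A1, the collagen of the anchoring fibrils that tie basement membrane to stroma, was at 4425, 6479.9 and 3242 with siNT, 2579, 4362 and 3225 with miR-28 and 2699, 5400.0 and 2808 with miR-708, overlapping and not called (log2 fold change -0.45 ± 0.31, adjusted p = 0.249, and -0.39 ± 0.31, adjusted p = 0.283). Without miR-708 replicate 2 the second value was -0.72 (adjusted p = 0.0493). Both values of COL7A1 passed with the replicate block (adjusted p = 0.0248 and 0.0335). COL25A1, a transmembrane collagen of neurons with a seed match, was at 8.80–12.9 with siNT, 13.98–25.3 with miR-28 and 10.98–38.0 with miR-708, with no call.

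Of the 4 beaded and network collagens 3 fell with both mimics, beside 23.5% and 31.2% of all genes called lower. COL8A1, a chain of the hexagonal lattice of Descemet's membrane, was at 43908, 56778 and 46274 with siNT, 25195, 31629.5 and 30363 with miR-28 and 18877, 17613 and 20962 with miR-708, and its partner COL8A2, with a seed match, was at 912, 1249 and 656 with siNT, 344, 463 and 301 with miR-28 and 87.9, 97.0 and 50.2 with miR-708. Both were separated in the order siNT, miR-28, miR-708. COL8A1 changed by a log2 fold change of -0.75 ± 0.14 (adjusted p = 0.0013) and -1.35 ± 0.14 (adjusted p = 1.41e-05), and COL8A2 by a log2 fold change of -1.32 ± 0.29 (adjusted p = 0.00356) and -3.57 ± 0.29 (adjusted p = 2.94e-06).

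COL6A1, a chain of the beaded type VI filaments with a seed match, was at 1092, 1286 and 822 with siNT, 791, 735 and 728 with miR-28 and 324, 376 and 289 with miR-708. The miR-28 libraries were just under the lowest of siNT and those of miR-708 far under, at a log2 fold change of -0.48 ± 0.16 (adjusted p = 0.0278) and -1.68 ± 0.16 (adjusted p = 8.48e-06). The smaller change was not called with library size scaling (adjusted p = 0.0537) or without siNT replicate 1 or 2 or miR-28 replicate 2 or 3 (adjusted p = 0.0571 to 0.115). COL6A3, of the same filaments, was at 675, 923 and 597 with siNT, 470.1, 1288 and 483 with miR-28 and 706, 1311 and 1014 with miR-708, overlapping, at a log2 fold change of -0.12 ± 0.36 (adjusted p = 0.814) and 0.44 ± 0.36 (adjusted p = 0.305).

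The 5 fibril-associated collagens, which bind the surface of fibrils, went both ways. COL12A1, found in tendon and other dense connective tissue, was at 56580.4, 76788 and 44421 with siNT, 29408, 29005 and 31039 with miR-28 and 15577, 16925 and 16577 with miR-708. Its groups did not overlap, and it fell, at a log2 fold change of -0.96 ± 0.17 (adjusted p = 0.0011) and -1.82 ± 0.17 (adjusted p = 7.92e-06). COL14A1, a related chain, was at 213, 263 and 198 with siNT, 1398, 884 and 979.7 with miR-28 and 472, 496 and 308 with miR-708. It was highest with miR-28, at a log2 fold change of 2.25 ± 0.21 (adjusted p = 2.27e-05), and intermediate with miR-708, at a log2 fold change of 0.89 ± 0.21 (adjusted p = 0.00408).

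COL21A1, a small chain of this class, was at 14.7, 14.2 and 16.1 with siNT, 128, 47.8 and 53.6 with miR-28 and 3.14, 10.5 and 4.25 with miR-708. It was called in opposite directions, at a log2 fold change of 2.13 ± 0.46 (adjusted p = 0.00358) with miR-28 and -1.34 ± 0.46 (adjusted p = 0.026) with miR-708. The fall was lost with a pseudocount of 8, with library size scaling (adjusted p = 0.0687 and 0.0609), and without siNT replicate 1, 2 or 3 or miR-708 replicate 1 or 3 (adjusted p = 0.053 to 0.0955). COL9A2, a cartilage chain, was at 26.4–105 with siNT and 5.49–11.9 with miR-708 and fell, at a log2 fold change of -2.14 ± 0.51 (adjusted p = 0.00374). COL16A1, which links fibrils and cells, rose with miR-708, at a log2 fold change of 0.48 ± 0.17 (adjusted p = 0.0313), from 409–526 to 554–783, a call lost without siNT replicate 1 or 3 or miR-708 replicate 1 or 2 (adjusted p = 0.0616 to 0.126).

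LAMA3 and LAMB3, abundant per length in MCF10A, were not called there. LAMA3 was at 20422, 14159 and 16044 with siNT, 15183, 15436 and 18261 with miR-28 and 18988, 13115 and 15454 with miR-708, and LAMB3 was at 7779.9, 6232 and 5666 with siNT, 5309, 5849 and 7275 with miR-28 and 5600.3, 4406 and 5651 with miR-708. Groups overlapped for LAMA3, whose log2 fold change was -0.039 ± 0.17 (adjusted p = 0.889) and -0.09 ± 0.17 (adjusted p = 0.711), and LAMB3 was at a log2 fold change of -0.094 ± 0.15 (adjusted p = 0.69) and -0.33 ± 0.15 (adjusted p = 0.124).

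LAMC1 fell and LAMB2 rose with both mimics in MCF10A. LAMC1 was at 12119, 13168 and 13109 with siNT, 7416, 8378 and 9379 with miR-28 and 8762, 8459.7 and 8877 with miR-708, all mimic libraries being below siNT, at a log2 fold change of -0.61 ± 0.10 (adjusted p = 0.00264) and -0.56 ± 0.10 (adjusted p = 0.00223). LAMB2 was at 2052, 1646 and 1504 with siNT, 3021, 2671 and 3053 with miR-28 and 2311, 2612 and 2650.0 with miR-708, all mimic libraries being above, at a log2 fold change of 0.76 ± 0.12 (adjusted p = 0.00193) and 0.55 ± 0.12 (adjusted p = 0.00529). LAMB1 was at 15106, 16004 and 17091 with siNT, 9782, 14238 and 15661 with miR-28 and 11665, 17339 and 18598 with miR-708, overlapping, at a log2 fold change of -0.31 ± 0.20 (adjusted p = 0.283) and -0.045 ± 0.20 (adjusted p = 0.885).

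LAMA2 and LAMA1, both at low levels in MCF10A, rose with each mimic. LAMA2 was at 14.4, 20.4 and 38.3 with siNT, 65.7, 73.0 and 80.8 with miR-28 and 103, 119 and 153 with miR-708. Its groups were separated in the order siNT, miR-28, miR-708, with log2 fold changes of 1.66 ± 0.34 (adjusted p = 0.00599) and 2.41 ± 0.34 (adjusted p = 0.00041). LAMA1, the alpha chain of early embryonic membranes, was at 103, 68.6 and 159.8 with siNT, 199.8, 252 and 359 with miR-28 and 148, 280.4 and 252 with miR-708, at a log2 fold change of 1.33 ± 0.33 (adjusted p = 0.0163) and 1.06 ± 0.33 (adjusted p = 0.0298). Only its miR-708 libraries overlapped siNT. The miR-28 call of LAMA1 was lost without siNT replicate 8 or miR-28 replicate 9 (adjusted p = 0.0625 to 0.0646), and the miR-708 call without siNT replicate 7 or 8 or miR-708 replicate 8 or 9 (adjusted p = 0.0688 to 0.114). LAMA4 was at 40.7, 27.9 and 40.2 with siNT, 13.4, 25.7 and 14.8 with miR-28 and 20.8, 38.3 and 21.96 with miR-708, with no call (log2 fold change -1.01 ± 0.39, adjusted p = 0.0805, and -0.44 ± 0.39, adjusted p = 0.405). LAMA5 was at 4021, 3487 and 3930.1 with siNT, 6606, 3259.9 and 3935 with miR-28 and 2578, 2946 and 3514 with miR-708, overlapping and not called (log2 fold change 0.21 ± 0.21, adjusted p = 0.51, and -0.35 ± 0.21, adjusted p = 0.233).

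COL4A1 and COL4A2 rose in MCF10A with miR-708. COL4A1 was at 933, 1298 and 1324 with siNT, 611, 1362 and 1855 with miR-28 and 1514, 2898 and 3984 with miR-708. COL4A2 was at 1639, 2038 and 1993 with siNT, 1139.6, 1914 and 2919 with miR-28 and 2317, 4278 and 5913 with miR-708. The miR-708 libraries lay above siNT and spread over more than 2-fold, with replicate 7 the lowest of each mimic group. COL4A1 was at a log2 fold change of -0.018 ± 0.39 (adjusted p = 0.98) and 1.15 ± 0.39 (adjusted p = 0.0421), and COL4A2 at a log2 fold change of -0.021 ± 0.34 (adjusted p = 0.972) and 1.05 ± 0.34 (adjusted p = 0.0358). The rise of COL4A1 was not called without siNT replicate 7, 8 or 9, miR-28 replicate 8 or miR-708 replicate 8 or 9 (adjusted p = 0.0549 to 0.164), nor that of COL4A2 without siNT replicate 7, 8 or 9, miR-28 replicate 8 or miR-708 replicate 8 or 9 (adjusted p = 0.0503 to 0.146).

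The other type IV chains of MCF10A were not called. COL4A5 was at 5293, 5429.5 and 6533 with siNT, 5693, 6261 and 6619.7 with miR-28 and 4512, 5193 and 6044 with miR-708 (log2 fold change 0.11 ± 0.13, adjusted p = 0.557, and -0.14 ± 0.13, adjusted p = 0.437). COL4A6 was at 3012, 2791 and 3253 with siNT, 2448, 2759.7 and 3340.2 with miR-28 and 3034, 2800.5 and 3278 with miR-708 (log2 fold change -0.092 ± 0.12, adjusted p = 0.611, and 0.0089 ± 0.12, adjusted p = 0.964). All groups overlapped. COL4A4, so abundant in hTERT RPE-1, was at 16.8–33.8 with siNT, 21.6–38.9 with miR-28 and 11.7–23.9 with miR-708, and was not called. COL18A1 was at 29.3, 47.4 and 38.7 with siNT, 32.9, 48.0 and 78.1 with miR-28 and 21.5, 25.3 and 51.2 with miR-708, also overlapping (log2 fold change 0.39 ± 0.41, adjusted p = 0.517, and -0.30 ± 0.41, adjusted p = 0.603).

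Of the 6 fibrillar collagens tested in MCF10A, 4 rose with miR-28, and 2 rose and 1 fell with miR-708, all from low levels, beside 10.7% of all genes called higher with miR-28 and 15.5% higher and 17.3% lower with miR-708. COL1A1 was at 107, 104 and 89.5 with siNT, 298, 215 and 196 with miR-28 and 161, 239 and 162 with miR-708, with both mimics above siNT, at a log2 fold change of 1.21 ± 0.22 (adjusted p = 0.00343) and 0.88 ± 0.22 (adjusted p = 0.0102). COL5A2 was at 291, 251 and 331.4 with siNT, 401, 415 and 406 with miR-28 and 375, 490.0 and 391 with miR-708, again with both above, at a log2 fold change of 0.49 ± 0.15 (adjusted p = 0.0344) and 0.52 ± 0.15 (adjusted p = 0.0194). The miR-28 call of COL5A2 was lost without siNT replicate 7 or 8 or miR-28 replicate 7, 8 or 9 (adjusted p = 0.0553 to 0.122), and the miR-708 call without siNT replicate 8 or miR-708 replicate 8 (adjusted p = 0.0755 to 0.0863).

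COL5A3, another type V chain, was at 34.7, 43.9 and 48.4 with siNT, 24.1, 20.7 and 27.6 with miR-28 and 14.99, 10.5 and 14.3 with miR-708, with siNT highest, at a log2 fold change of -0.78 ± 0.33 (adjusted p = 0.108) and -1.60 ± 0.33 (adjusted p = 0.00367). COL2A1, the chain of cartilage type II collagen, was at 14.4, 25.7 and 40.2 with siNT, 72.4, 78.0 and 83.8 with miR-28 and 40.8, 60.3 and 35.3 with miR-708, at a log2 fold change of 1.62 ± 0.37 (adjusted p = 0.01) and 0.82 ± 0.37 (adjusted p = 0.106). Its miR-28 libraries were the 3 highest, and those of miR-708 overlapped siNT. COL27A1 rose with miR-28 by a log2 fold change of 1.04 ± 0.23 (adjusted p = 0.00909), from 43.1–57.9 to 90.7–117. COL11A2, at 1.197–11.8 with siNT and 14.8–42.9 with miR-28, passed only with the replicate block (adjusted p = 0.0406).

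COL7A1 rose in MCF10A with miR-28, being at 1259, 1871 and 2534 with siNT, 5581, 2902 and 3716 with miR-28 and 1012, 2348 and 2239 with miR-708. Replicate 7 was the highest miR-28 library and the lowest of each other group, and the log2 fold change was 1.11 ± 0.34 (adjusted p = 0.0368) and -0.055 ± 0.34 (adjusted p = 0.919). The call was lost without siNT replicate 7 or 8 or miR-28 replicate 7 or 9 (adjusted p = 0.0754 to 0.127). COL17A1, one of the chains most abundant per length in this line, was at 14392, 12830.2 and 13682 with siNT, 15259, 15724 and 18668 with miR-28 and 16539, 14466 and 16554 with miR-708. Every mimic library was above siNT but by little, at a log2 fold change of 0.28 ± 0.11 (adjusted p = 0.104) and 0.22 ± 0.11 (adjusted p = 0.17), values that passed with library size scaling (adjusted p = 0.0257 and 0.0242) and after quantile normalization (0.00855 and 0.00707). COL13A1 was not called, at 22.7–36.5 with siNT.

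COL6A3 was the chain that fell furthest with miR-28 in MCF10A, from a low level, at 27.5, 36.4 and 42.9 with siNT, 12.1, 9.12 and 16.8 with miR-28 and 7.497, 20.1 and 16.2 with miR-708. All mimic libraries were below siNT, at a log2 fold change of -1.44 ± 0.44 (adjusted p = 0.0369) and -1.31 ± 0.44 (adjusted p = 0.0403). Its calls did not hold with library size scaling (adjusted p = 0.053 and 0.0658), nor the first without siNT replicate 7, 8 or 9 or miR-28 replicate 7, 8 or 9 (adjusted p = 0.0504 to 0.124), nor the second without siNT replicate 7, 8 or 9 or miR-708 replicate 7 or 9 (adjusted p = 0.0577 to 0.132). COL6A1 was at 217, 238 and 220.0 with siNT, 199.8, 233 and 195 with miR-28 and 137, 208 and 187 with miR-708, not called (log2 fold change -0.11 ± 0.18, adjusted p = 0.703, and -0.36 ± 0.18, adjusted p = 0.146), and COL6A2, near the lower limit, was at 15.6, 8.57 and 11.9 with siNT, 8.04, 7.46 and 5.91 with miR-28 and 6.66, 10.5 and 20.05 with miR-708, not called (log2 fold change -0.65 ± 0.51, adjusted p = 0.377, and -0.044 ± 0.51, adjusted p = 0.957).

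COL8A1 was at 2341, 5536 and 5481 with siNT, 2373, 5689.7 and 5929 with miR-28 and 2878, 6106 and 7098 with miR-708 in MCF10A, overlapping, at a log2 fold change of 0.057 ± 0.43 (adjusted p = 0.94) and 0.27 ± 0.43 (adjusted p = 0.665). Replicate 7 was the lowest in each group, and the second value passed with the replicate block (adjusted p = 0.0286). COL28A1, a beaded-filament-like collagen of nerve, was at 45.5, 129 and 133 with siNT, 186, 425 and 320.3 with miR-28 and 122, 315 and 244 with miR-708. It showed the same low replicate 7 and changed by a log2 fold change of 1.66 ± 0.46 (adjusted p = 0.0236) and 1.19 ± 0.46 (adjusted p = 0.0649), the latter passing with the block (adjusted p = 0.000264) and with library size scaling (adjusted p = 0.0477). The former was lost without siNT replicate 7 or miR-28 replicate 8 or 9 (adjusted p = 0.0677 to 0.0924), and the latter passed without replicate 7 of miR-28 or of miR-708 (adjusted p = 0.049 and 0.0216).

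Of the fibril-associated collagens in MCF10A, COL12A1 fell and COL16A1 rose with both mimics. COL12A1 was at 6079, 6259.9 and 5936 with siNT, 3089, 4152 and 4780.1 with miR-28 and 3269.5, 2814 and 3885 with miR-708, all mimic libraries below siNT, at a log2 fold change of -0.63 ± 0.16 (adjusted p = 0.0154) and -0.89 ± 0.16 (adjusted p = 0.00156). The miR-28 call was lost without siNT replicate 8 (adjusted p = 0.0504). COL16A1 was at 655, 929.9 and 838 with siNT, 1587, 1786 and 2206 with miR-28 and 1294, 1558 and 1928 with miR-708, all mimic libraries above, at a log2 fold change of 1.204 ± 0.17 (adjusted p = 0.00116) and 0.98 ± 0.17 (adjusted p = 0.00176). COL22A1, a chain of tissue junctions, was at 178, 57.9 and 94.9 with siNT, 382, 105 and 99.5 with miR-28 and 423, 159 and 189 with miR-708, highest in replicate 7 of every group, and was called only with the replicate block, at adjusted p = 0.0303 and 0.000625, and with miR-708 without miR-28 replicate 7 (adjusted p = 0.0415).

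The mimics were also compared with each other. In hTERT RPE-1, 18 of 38 chains (47.4%) differed, 5 higher with miR-708 (13.2%) and 13 lower (34.2%), beside 21.2% of all genes, 9.88% higher and 11.4% lower, and the median difference was -0.39 for the chains. Library size scaling, which moves the median of all genes to 0.23, gave 6 higher and 9 lower. COL21A1 was lower with miR-708, at a log2 fold change of -3.47 ± 0.46 (adjusted p = 0.00122), COL4A3 at a log2 fold change of -2.78 ± 0.20 (adjusted p = 7.2e-05), COL4A4 at a log2 fold change of -2.72 ± 0.15 (adjusted p = 4.5e-05) and COL8A2 at a log2 fold change of -2.25 ± 0.29 (adjusted p = 0.00101). COL17A1 was higher, at a log2 fold change of 2.32 ± 0.51 (adjusted p = 0.0104), LAMA3 at a log2 fold change of 2.24 ± 0.53 (adjusted p = 0.0147), COL13A1 at a log2 fold change of 1.38 ± 0.21 (adjusted p = 0.00217) and LAMB3 at a log2 fold change of 1.14 ± 0.23 (adjusted p = 0.00731).

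Some of these differences were lost without single libraries or with another scaling. That of LAMA3 was lost without miR-28 replicate 3 or miR-708 replicate 2 (adjusted p = 0.0501 to 0.0569), and that of COL17A1 without miR-708 replicate 3 (adjusted p = 0.0523). COL1A1, at a log2 fold change of -1.69 ± 0.54 (adjusted p = 0.0486), was close to the threshold and was lost without siNT replicate 1 or 3, miR-28 replicate 2 or 3 or miR-708 replicate 1 or 3 (adjusted p = 0.0513 to 0.175). It was also lost with library size scaling (adjusted p = 0.0598), quantile normalization (adjusted p = 0.0516) and no mean-variance trend (adjusted p = 0.0939). Same-numbered hTERT RPE-1 mimic libraries deviated together, and with the replicate block COL3A1, COL4A1 and COL9A2 were gained (adjusted p = 0.0493, 0.0307 and 0.04). The count of 18 became 12 without miR-28 replicate 3 and 16 without miR-28 replicate 1.

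In MCF10A, limma with Benjamini-Hochberg adjustment called 0 of 34 chains between the mimics, 7 having an unadjusted p below 0.05, where 1.55% of genes were called, 1.28% higher and 0.265% lower with miR-708. COL4A1 at a log2 fold change of 1.17 ± 0.39 (adjusted p = 0.193), COL4A2 at a log2 fold change of 1.07 ± 0.34 (adjusted p = 0.175) and COL7A1 at a log2 fold change of -1.17 ± 0.34 (adjusted p = 0.142) passed with the replicate block (adjusted p = 0.000686, 0.00194 and 0.0387). COL4A2 also passed without miR-708 replicate 7 (1.44, adjusted p = 0.0382).

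Responses were then compared between lines for the 27 chains listed in both, as the log2 fold change in hTERT RPE-1 minus that in MCF10A. For miR-28, 9 of 27 (33.3%) differed, 3 higher in hTERT RPE-1 (11.1%) and 6 lower (22.2%), beside 23.4% of the 13339 genes tested in both, 12.1% higher and 11.3% lower. Quantile normalization gave 5 higher and 6 lower. For miR-708, 17 of 27 (63.0%) differed, 6 higher (22.2%) and 11 lower (40.7%), beside 39.8% of genes, 20.2% higher and 19.6% lower. The labels do not say how the lines were processed. The lines share no replicate number and were scaled separately, so line, batch and transfection cannot be told apart in these differences.

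LAMA3 and LAMB3 answered differently in the lines. The difference for LAMA3 was 3.17 ± 0.56 (adjusted p = 0.00176) with miR-28 and 5.47 ± 0.56 (adjusted p = 9.77e-06) with miR-708. LAMB3 differed by a log2 difference of 0.92 ± 0.28 (adjusted p = 0.0222) and 2.29 ± 0.28 (adjusted p = 4.8e-06), the first lost without siNT replicate 7 of MCF10A or siNT replicate 3 of hTERT RPE-1 (adjusted p = 0.0539 and 0.0654). COL17A1 differed by a log2 difference of 3.75 ± 0.52 (adjusted p = 0.000155) and COL13A1 by a log2 difference of 2.52 ± 0.49 (adjusted p = 0.000734) with miR-708. LAMA3 and COL17A1 were near the lower limit in hTERT RPE-1 siNT libraries, as given above.

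COL1A1 moved in opposite directions, by 1.21 and 0.88 in MCF10A but -2.17 and -3.86 in hTERT RPE-1, with differences of -3.39 ± 0.58 (adjusted p = 0.0012) and -4.74 ± 0.58 (adjusted p = 2.51e-05). COL4A1 and COL4A2 did so with miR-708, differing by a log2 difference of -2.004 ± 0.46 (adjusted p = 0.00196) and -1.73 ± 0.40 (adjusted p = 0.0021). COL4A4 differed by a log2 difference of -1.89 ± 0.44 (adjusted p = 0.00715) and -3.97 ± 0.44 (adjusted p = 8.62e-06), and LAMB2, higher in MCF10A, by a log2 difference of -0.71 ± 0.20 (adjusted p = 0.0136) and -0.77 ± 0.20 (adjusted p = 0.00408). LAMC1 and LAMA2 were called in the same direction in each line with both mimics, and their differences did not pass, at 0.027 ± 0.16 (adjusted p = 0.919) and -0.32 ± 0.16 (adjusted p = 0.106) for LAMC1 and -0.24 ± 0.44 (adjusted p = 0.73) and -0.34 ± 0.44 (adjusted p = 0.566) for LAMA2.

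**Figure D5:**
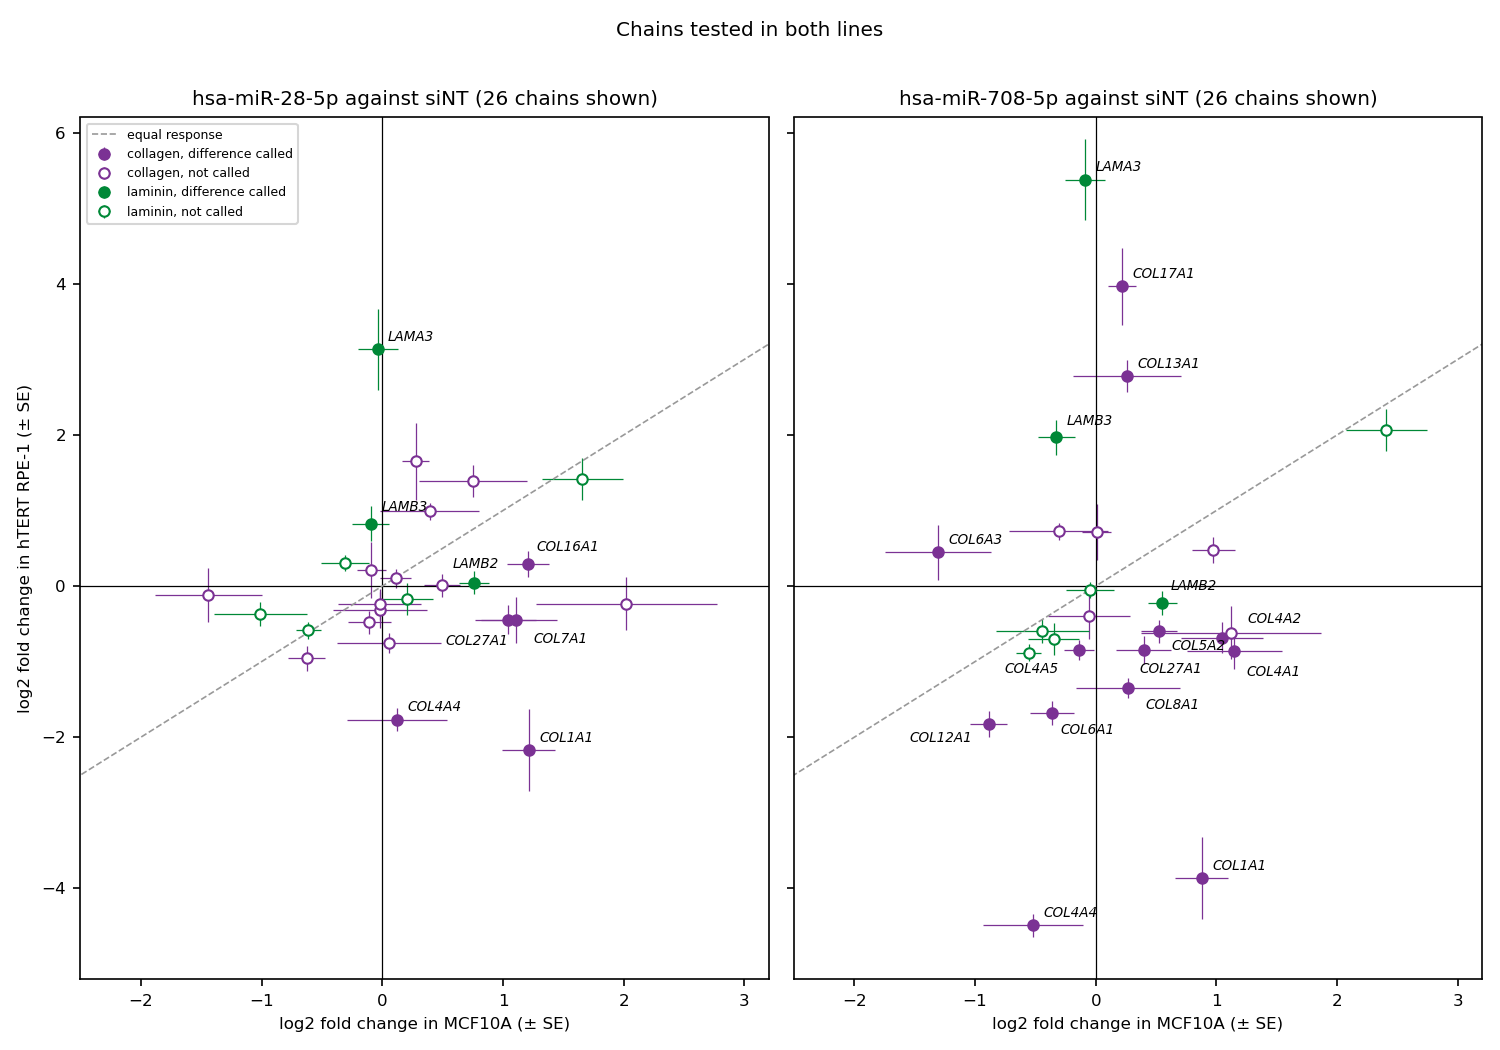
Log2 fold change over siNT in MCF10A (horizontal) and hTERT RPE-1 (vertical) of chains tested in both lines (26 of 27 shown), for miR-28 and miR-708, with filled points where the responses differed at an adjusted p below 0.05 (8 and 16 of those shown) and a line where they would be equal. LAMA3 lies far above the line and COL1A1 and COL4A4 far below it.

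The proteins that make and finish collagen were followed as lists. Of the 20 genes for assembly in the endoplasmic reticulum, 1 rose and 8 fell of 19 tested with miR-28 in MCF10A and 1 rose and 6 fell with miR-708, with medians of -0.26 and -0.18, beside 10.7% of all genes called higher and 12% lower with miR-28 and 15.5% and 17.3% with miR-708. Of the 20 tested in hTERT RPE-1, 3 rose and 9 fell with miR-28 and 4 rose and 10 fell with miR-708, with medians of -0.36 and -0.26, beside 23.3% of all genes higher and 23.5% lower with miR-28 and 30.9% and 31.2% with miR-708. SERPINH1, the collagen chaperone HSP47, fell, at a log2 fold change of -0.93 ± 0.10 (adjusted p = 0.000322) and -1.11 ± 0.10 (adjusted p = 3.8e-05) in MCF10A and at a log2 fold change of -0.65 ± 0.094 (adjusted p = 0.000331) and -1.81 ± 0.094 (adjusted p = 2.22e-07) in hTERT RPE-1. FKBP10, a prolyl isomerase of procollagen, was at 5818, 6839.7 and 5269.7 with siNT, 1306, 1859.7 and 1475 with miR-28 and 665, 781 and 679 with miR-708 in hTERT RPE-1. Its groups were separated there, at a log2 fold change of -1.96 ± 0.14 (adjusted p = 3.48e-06) and -3.07 ± 0.14 (adjusted p = 1.05e-07), and it also fell in MCF10A, at a log2 fold change of -0.80 ± 0.14 (adjusted p = 0.0031) and -1.56 ± 0.14 (adjusted p = 3.41e-05). MIA2 and MIA3, which help load procollagen for export, rose in hTERT RPE-1 with both mimics. With miR-28 both were called, at a log2 fold change of 0.87 for MIA2 and 0.60 for MIA3. With miR-708 the log2 fold change was 1.198 ± 0.18 (adjusted p = 0.000191) and 0.84 ± 0.12 (adjusted p = 0.000151).

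Of the genes for processing and crosslinking outside the cell, none rose and 3 of 12 fell with each mimic in MCF10A, and in hTERT RPE-1 1 rose and 8 of 14 fell with miR-28 and none rose and 8 fell with miR-708. Lower calls over all genes made up 12% and 17.3% (MCF10A) and 23.5% and 31.2% (hTERT RPE-1). The medians were -0.46 and -0.0019 (MCF10A) and -0.58 and -0.75 (hTERT RPE-1). TGM2, a transglutaminase that crosslinks matrix proteins, was at 61541–86574 with siNT in hTERT RPE-1 and fell, at a log2 fold change of -2.71 ± 0.23 (adjusted p = 1.06e-05) and -3.80 ± 0.23 (adjusted p = 4.88e-07). LOXL4, a lysyl oxidase, fell there, at a log2 fold change of -2.83 ± 0.40 (adjusted p = 0.000276) and -4.21 ± 0.40 (adjusted p = 9.07e-06), and LOX, the founding member, at a log2 fold change of -0.58 ± 0.19 (adjusted p = 0.0242) and -0.77 ± 0.19 (adjusted p = 0.00421). LOX fell in MCF10A as well, at a log2 fold change of -0.85 ± 0.17 (adjusted p = 0.00625) and -0.80 ± 0.17 (adjusted p = 0.0051).

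Basement membrane partners and non-integrin receptors were followed in the same way. In MCF10A 2 rose and none fell of 8 with each mimic, at medians of 0.12 and 0.21 and beside 10.7% and 15.5% of all genes called higher, BCAM, a receptor of LAMA5 laminins, rising by a log2 fold change of 1.35 ± 0.29 (adjusted p = 0.00753) and 1.012 ± 0.29 (adjusted p = 0.0195). In hTERT RPE-1 none rose and 4 of 10 fell with miR-28 and 1 rose and 8 fell with miR-708, at medians of -0.28 and -0.84, beside 23.5% and 31.2% of all genes called lower. NID2, a nidogen that bridges laminin and type IV collagen, fell there, at a log2 fold change of -1.29 ± 0.14 (adjusted p = 4.38e-05) and -2.30 ± 0.14 (adjusted p = 4.47e-07), while its relative NID1 rose with miR-708, at a log2 fold change of 0.38 ± 0.10 (adjusted p = 0.00894). HSPG2, the perlecan core protein, fell, at a log2 fold change of -0.58 ± 0.21 (adjusted p = 0.042) and -1.89 ± 0.21 (adjusted p = 2.65e-05). The test of the difference between lines was called for 4 of 8 and 5 of 8 shared genes, all lower in hTERT RPE-1, beside 11.3% and 19.6% of all genes lower there.

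Chains with a 7-letter seed match did not all fall. In hTERT RPE-1 COL8A2 and COL6A1 fell with both mimics, LAMA4 with miR-708, COL25A1 was not called, and COL17A1, with 2 matches, rose with both. The median log2 fold change of the 5 chains was -0.37 with miR-28 and -0.59 with miR-708, beside 0.029 and -0.35 for chains with no match, and in all genes -0.16 and -0.27 with a match and 0.063 and 0.094 without. In MCF10A no chain with a 7-letter match (COL6A1, COL6A2, COL17A1, LAMA4) was called with either mimic, their medians being -0.38 and -0.20 beside 0.16 and 0.32 for chains without. COL4A3, the chain with the second lowest log2 fold change in hTERT RPE-1 (-4.36 with miR-708), held no match of 6 letters or more, and COL4A4 and COL1A1 only 6-letter ones.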

How the data were processed

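RNAseq of 18 libraries (3 biological replicates of 3 transfections in each of 2 lines) was used as deposited. The authors aligned reads to hg38 with HISAT2 2.1.0, estimated read counts per gene in Partek and divided them by a size factor per library, so the deposited values are a scaled signal and not raw counts (80.1–84.8% of low values fell on whole-read steps). The 2 lines were scaled separately. Deposited comparison tables with the authors' fold changes and p-values were not used.

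Each line was fitted with limma 3.58.1 (R 4.3.3) on log2(value + 1), keeping genes at 10 or more in at least 3 libraries, with 3 group means, a mean-variance trend and Benjamini-Hochberg adjustment, as the values are not counts. Fold changes on this scale understate those of low genes. Differences between lines combined both standard errors (Welch-Satterthwaite). Fits were tested on simulated data. Tables were handled with Python 3.11.15, pandas 2.3.3 and numpy 2.4.6. Levels per kilobase use the length of 1 transcript per gene (GENCODE release 44).

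The members and gene lists were chosen with earlier results of these data known. One chain is included in the counts and medians but is not reported by name or plotted here. Values in every library are given for the LAMA3, LAMB3, LAMA4, LAMA5, LAMB1, LAMB2 and LAMC1 chains, the main type I, III, IV, V, VI, VII, VIII, XII, XVII and XVIII collagen chains and, in each line, the 5 chains with the largest called rise and the 5 with the largest called fall. COL9A2, COL11A1, COL14A1, COL21A1, COL22A1, FKBP10 and the other genes named outside this rule were chosen after their values were seen. Same-numbered replicates met a rule for pairing where each of the 3 correlations of their deviations exceeded 0.1. This held for each mimic against siNT in MCF10A (0.111 to 0.302) and for the mimics in hTERT RPE-1 (0.134 to 0.279). It did not hold for hTERT RPE-1 mimics against siNT (0.021 to 0.152) or the MCF10A mimics (0.025 to 0.177). The reported fit used no pairing in any comparison, including those that met the rule, and pairing enters only through the replicate block below. Alternatives were a pseudocount of 8, no filter, a minimum of 50, library size scaling, quantile normalization, no trend, a 2-fold minimum, a replicate block, and each library left out.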

Additional observations from a re-analysis of the deposited data

Results flagged for a closer look

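These chains stood out because the response to the same mimic differed between the lines by a test of the difference itself (log2 fold change in hTERT RPE-1 minus that in MCF10A, adjusted p below 0.05 in limma with Benjamini-Hochberg adjustment). For miR-28 the difference was 3.17 for LAMA3 and 0.92 for LAMB3, and on the lower side -3.39 for COL1A1, -1.89 for COL4A4, -1.56 for COL7A1, -1.49 for COL27A1, -0.91 for COL16A1 and -0.71 for LAMB2. For miR-708 it was 5.47 for LAMA3, 3.75 for COL17A1, 2.52 for COL13A1, 2.29 for LAMB3 and 1.75 for COL6A3, and on the lower side -4.74 for COL1A1, -3.97 for COL4A4, -2.004 for COL4A1, -1.73 for COL4A2, -1.62 for COL8A1, -1.31 for COL6A1, -1.24 for COL27A1, -1.12 for COL5A2, -0.94 for COL12A1, -0.77 for LAMB2 and -0.71 for COL4A5. Without siNT replicate 7 of MCF10A or siNT replicate 2 of hTERT RPE-1 the miR-28 difference of COL7A1 did not pass (adjusted p = 0.0557 and 0.0545), nor did the miR-708 difference of COL6A3 without siNT replicate 9 or miR-708 replicate 7 of MCF10A (adjusted p = 0.0583 and 0.054). After quantile normalization the miR-708 differences of COL12A1 and COL8A1 did not pass (-0.42, adjusted p = 0.119, and -1.13, adjusted p = 0.0689). The part of line, batch or transfection in them was not tested.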

How the results depend on the processing

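Of 117 called values of single chains 81 kept direction and call in every setting tried other than the 2-fold minimum and 36 lost the call in at least 1, while of 153 values not called 112 stayed so and 41 passed in at least 1. The value that turned sign past the threshold was LAMB1 in hTERT RPE-1 with miR-708, from -0.054 to 0.27 with library size scaling and 0.50 after quantile normalization. With a 2-fold minimum added there were 6 of 13 chains with miR-708 in MCF10A, 12 of 19 with miR-28 and 17 of 28 with miR-708 in hTERT RPE-1. The replicate block gave 3 calls in place of 0 between the mimics in MCF10A. Same-numbered mimic libraries there correlated at 0.121, 0.025 and 0.177, short of the rule for pairing, although each mimic met it against siNT. The count of 0 thus depends on leaving the block out. With the replicate block calls went from 13 to 16 for each mimic in MCF10A, 19 to 24 and 28 to 29 in hTERT RPE-1, 18 to 20 between the mimics there, and 9 to 13 and 17 to 19 between the lines, while calls over all genes rose too, from 3347 to 4408, 4835 to 5818, 6798 to 6997, 9024 to 9101, 3084 to 3315, 3127 to 3757 and 5311 to 5838 in that order (228 to 643 between the MCF10A mimics). Leaving out 1 library gave 8 to 14 calls with miR-28, 8 to 16 with miR-708 and 0 to 1 between mimics in MCF10A, 16 to 20, 25 to 28 and 12 to 19 in hTERT RPE-1, and 7 to 11 and 16 to 18 between the lines. The cause of these shifts was not tested. Library size scaling moved the median of all genes to 0.12 and 0.14 (MCF10A) and 0.091 and 0.32 (hTERT RPE-1). Without the mean-variance trend COL28A1 and COL7A1 with miR-28 and COL4A1, COL4A2 and LAMA1 with miR-708 in MCF10A were not called, nor was COL16A1 with miR-708 in hTERT RPE-1 (adjusted p = 0.0509 to 0.0972), and quantile normalization lost the miR-28 calls of COL5A2 in MCF10A and COL17A1 in hTERT RPE-1 (adjusted p = 0.0503 and 0.0506). Depth limits chains with libraries near 3 reads, such as COL17A1, COL1A2 and COL5A1 in hTERT RPE-1 and COL11A2 in MCF10A.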

Other observations

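Genes for matrix degradation, not described above, gave 2 rises and 1 fall of 9 tested with miR-28 and 3 and 2 with miR-708 in MCF10A, and 3 and 3 of 8 and 2 and 4 of 8 in hTERT RPE-1. Calls over all genes made up 22.7% and 32.8% (MCF10A) and 46.8% and 62.1% (hTERT RPE-1). The share of the list that was called was above these in each comparison, but the list is short and was not tested as a set. MMP2, the gelatinase that cleaves denatured collagen and type IV collagen, was at 110820, 116182 and 96819 with siNT, 64442, 58982 and 63344 with miR-28 and 49915, 44558 and 39668 with miR-708 in hTERT RPE-1. Its groups were separated, and it fell, at a log2 fold change of -0.79 ± 0.14 (adjusted p = 0.00103) and -1.27 ± 0.14 (adjusted p = 2.21e-05) there and at a log2 fold change of -1.61 ± 0.27 (adjusted p = 0.00267) and -2.27 ± 0.27 (adjusted p = 0.000173) in MCF10A. MRC2, the receptor that takes up collagen fragments, fell, at a log2 fold change of -0.54 ± 0.18 (adjusted p = 0.0291) and -1.54 ± 0.18 (adjusted p = 3.37e-05) in hTERT RPE-1 and at a log2 fold change of -2.03 ± 0.48 (adjusted p = 0.00804) with miR-708 in MCF10A. TIMP2, an inhibitor of these proteases, rose in MCF10A, at a log2 fold change of 0.56 ± 0.15 (adjusted p = 0.0185) and 1.15 ± 0.15 (adjusted p = 0.000234) and fell in hTERT RPE-1 with miR-708, at a log2 fold change of -0.31 ± 0.099 (adjusted p = 0.018). MMP15, a membrane-bound protease, rose in hTERT RPE-1, at a log2 fold change of 1.45 ± 0.13 (adjusted p = 1.53e-05) and 1.30 ± 0.13 (adjusted p = 1.3e-05).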
